A study of Mus musculus with 6 samples.

Results

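Among the EZH2 binding sites mapped in mouse embryonic fibroblasts rescued with wild-type EED, 216 of 3449 were broad, stood apart from other EZH2 sites, and carried no called H3K27me3 in cells rescued with EED R302S. They were chosen on the peak positions themselves. A peak had to be 4400 bp or wider, have no other EZH2 peak within 5000 bp, and share no base with an H3K27me3 peak of the R302S rescue. Widths, gaps and overlaps therefore chose these sites and are given as description.

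The study used fibroblasts with floxed EED that had received Cre from a hit-and-run lentivirus, and 1 knockout clone was kept. That clone was then transduced with lentivirus for stable expression of EED as wild type or with the change R302S or Y365A, so every group shares the loss of its own EED and the clone it came from. Fixed chromatin was digested with micrococcal nuclease down to single nucleosomes, then pulled down with a monoclonal antibody against EZH2 or against H3K27me3. The 6 groups held 1 library each, and 2 were used here: EZH2 with wild-type EED, and H3K27me3 with EED R302S. The other 4 samples were not analysed here. No replicate and no per-peak signal stood behind either list, so conditions could not be tested against each other and the text prints no p-values. Antibody and EED form differ together between the lists and cannot be told apart. The fibroblast label could not be checked against marker genes, because the files hold peak positions alone.

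EZH2 is the catalytic subunit of Polycomb repressive complex 2 (PRC2), which places methyl groups on lysine 27 of histone H3. EED, a further core subunit, binds the trimethylated product H3K27me3, and this contact stimulates the enzyme, so that the mark can spread from where PRC2 first settles. Broad EZH2 binding is typical of CpG-rich regions near developmental genes that PRC2 keeps silent. H3K27me3 peaks of cells with wild-type EED were not used, so the sites described here cannot be said to have lost the mark.

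The 216 sites covered 1.46 Mb, which was 12.3% of all EZH2 peak length although they were 6.26% of the EZH2 peaks. Over the whole list, 72.3% of EZH2 peaks shared no base with an H3K27me3 peak. Among the 819 peaks of 4400 bp or more the share was 42.1%, and among the 603 of these that were solitary it was 35.8% (216 of 603, 95% Wilson interval 32.1% to 39.7%). The remaining 387 wide solitary peaks overlapped H3K27me3 and serve below as the nearest comparison. Wide peaks that did have a neighbour within 5000 bp lacked H3K27me3 in 129 of 216 cases, or 59.7% (53.1% to 66.0%). Solitary peaks narrower than 4400 bp lacked it in 1832 of 2273 cases, or 80.6% (78.9% to 82.2%). These intervals cover counting error within 1 pair of libraries.

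Most of the sites were only moderately broad. Their median width was 5.8 kb (95% interval of the median 5.6 to 6.2 kb, quartiles 4.8 and 7.4 kb), and the range ran from 4.4 to 28.2 kb. By width, 73 spanned 4400 to 5200 bp, 75 spanned 5400 to 6600 bp, 36 spanned 6800 to 8800 bp and 32 spanned 9000 bp or more. The wide solitary peaks with H3K27me3 had a median of 6.6 kb (6.2 to 7.0 kb), with quartiles of 5.2 and 8.4 kb and a maximum of 23.8 kb. In that group the same classes held 105, 94, 107 and 81 peaks. The share lacking H3K27me3 was 41.0% (34.0% to 48.4%) and 44.4% (37.1% to 51.9%) in the 2 narrower classes, against 25.2% (18.8% to 32.9%) and 28.3% (20.8% to 37.2%) in the 2 wider ones. The share was thus lower in both wider classes, and within either pair of classes the intervals overlapped. The interval of the widest class also overlapped those of both narrower classes. The rule asks for no shared base over the whole peak, and wider peaks have more bases. The part of this in the shares was not tested.

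**Figure D1:**
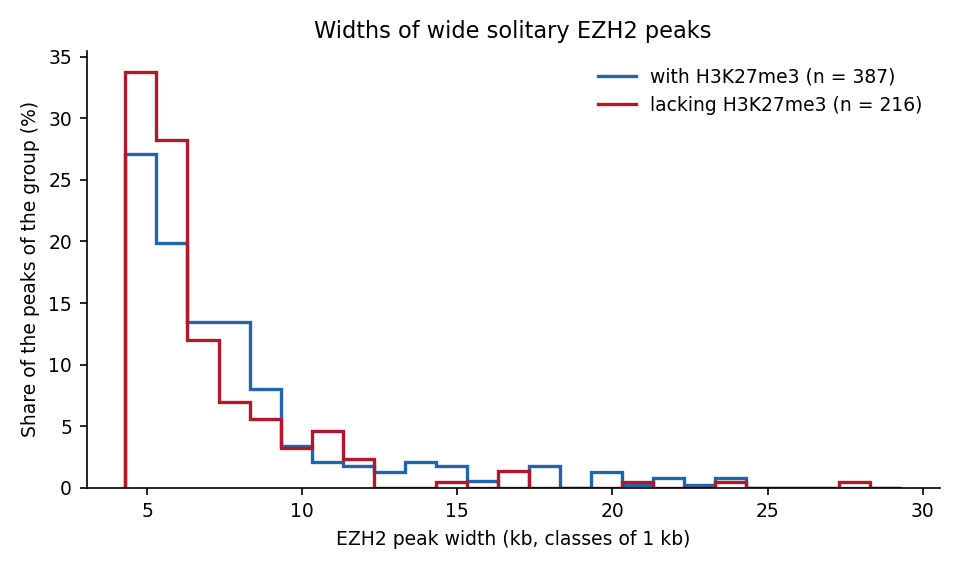
Share of peaks (y axis, percent of each group) by EZH2 peak width (x axis, kb) for 216 wide solitary EZH2 peaks lacking H3K27me3 in R302S cells (red) and 387 with it (blue). The red outline is higher below about 6 kb and lower from about 6 to 9 kb, with single red peaks out to 28.2 kb.

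The limits of the definition fell within a continuous run of values. Solitary peaks lacking H3K27me3 numbered 18 at exactly 4400 bp and 19 at 4600 bp, just inside the width limit, and 32 at 4200 bp and 35 at 4000 bp, just outside it. Among wide peaks lacking H3K27me3, 6 had a nearest neighbour at exactly 5200 bp, inside the limit on neighbours, and 4 had one at exactly 5000 bp, outside it. Few of the sites themselves lay close to the overlap limit. A single site abutted an H3K27me3 peak without sharing a base, and no other lay within 5000 bp of one. The rule itself favours this, because it allowed no other EZH2 peak within 5000 bp. For 195 of the 216 sites the nearest H3K27me3 peak overlapped an EZH2 peak. On the far side of the overlap limit, 5 of the 387 wide solitary peaks with H3K27me3 shared no more than 400 bp with it, and 17 no more than 1000 bp. The choice of overlap criterion still mattered. Where H3K27me3 had to cover at least 50% of a peak to count, 284 wide solitary peaks lacked it, or 47.1%.

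The widest site of all spanned 28.2 kb at chr17:45661201-45689400 (mm9 throughout). It had 1 other EZH2 peak within 100 kb, a peak of 4.6 kb at a gap of 45.8 kb, and its nearest H3K27me3 peak, 2.6 kb wide, lay 901.6 kb away. The EZH2 neighbour, chr17:45610801-45615400, was itself 1 of the 216 sites. The next widest, 23.8 kb at chr11:116774201-116798000, sat in a much denser setting with 8 EZH2 peaks within 100 kb, yet its nearest H3K27me3 peak was 630.2 kb away. A site of 20.4 kb at chr15:102738001-102758400 had 7 EZH2 peaks within 100 kb, the closest at 6.6 kb, and an H3K27me3 peak at 158.6 kb. These 3 sites had no H3K27me3 peak within 100 kb.

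The fourth widest site behaved differently in its surroundings. At chr19:6414001-6430600 it spanned 16.6 kb, and an H3K27me3 peak of 4.2 kb lay 12 kb from its edge. Its nearest EZH2 neighbour, 6.2 kb wide at a gap of 10.2 kb, did carry H3K27me3. A pair of 16.4 kb sites followed on chromosome 17, at chr17:7166401-7182800 and chr17:8341001-8357400, whose nearest H3K27me3 peaks were 688.8 and 268.2 kb away. In both cases that H3K27me3 peak overlapped no EZH2 peak. The remaining sites among the 10 widest were chr8:72635601-72650200 (14.6 kb), chr11:115174201-115186200 (12 kb), chr9:64790201-64802000 (11.8 kb) and chr8:123325001-123336400 (11.4 kb). Their distances to H3K27me3 were 365.8, 42.0, 181.0 and 62.4 kb in that order. The last of them tied in width with chr15:78517401-78528800 and chr17:25427201-25438600, and the order of chromosomes decided which was counted. Of the 10 widest sites, 9 had a nearest EZH2 neighbour that likewise lacked H3K27me3, the exception being the site on chromosome 19. Such a neighbour was common in general, at 83.3% of all 216 sites and 73.0% of all EZH2 peaks.

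The sites lay on all 19 autosomes but unevenly. Chromosome 17 held 34, chromosome 4 held 29, chromosome 15 held 22 and chromosome 11 held 19, which together made 104 of 216, or 48.1%. The same 4 chromosomes held 34.6% of all EZH2 peaks and 26.9% of the wide solitary peaks with H3K27me3. They were picked for holding the most sites, which favours a higher share for the sites. Chromosome 5 had 15 sites, chromosome 19 had 14, chromosome 2 had 12, chromosomes 3 and 8 had 10 each, chromosome 14 had 9, chromosome 12 had 8 and chromosome 9 had 7. There were 6 each on chromosomes 1 and 6, 5 on chromosome 18, 4 on chromosome 10, 3 on chromosome 16, 2 on chromosome 13 and 1 on chromosome 7. Per megabase of the span covered by peaks, chromosome 17 had 0.399 sites, chromosome 19 had 0.245, chromosome 15 had 0.227 and chromosome 4 had 0.190.

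On chromosomes 17 and 14, wide solitary peaks lacking H3K27me3 outnumbered those with it. On chromosome 17, 34 of 48 wide solitary peaks lacked H3K27me3, or 70.8% (56.8% to 81.8%), against 32.8% (29.0% to 36.8%) of the 555 on all other chromosomes. Chromosome 14 followed with 9 of 15, or 60% (35.7% to 80.2%), then chromosome 4 with 29 of 59, or 49.2% (36.8% to 61.6%), and chromosome 15 with 22 of 46, or 47.8% (34.1% to 61.9%). Low shares were seen on chromosome 7, with 1 of 11 or 9.09% (1.62% to 37.7%), chromosome 13, with 2 of 15 or 13.3% (3.74% to 37.9%), and chromosome 10, with 4 of 26 or 15.4% (6.15% to 33.5%). On X, 0 of 5 wide solitary peaks lacked H3K27me3, with a Wilson upper bound of 43.4%. The coarser rule of taking a count of 0 as up to 3 peaks gives up to 60%, and is too loose for 5 peaks. The interval of chromosome 17 lay above that of all other chromosomes pooled. Chromosome 17 had the highest share, and setting it apart for that reason favours such a separation. Its interval overlapped those of several chromosomes taken singly, among them chromosomes 4, 14 and 15. The intervals of chromosomes with few wide solitary peaks were too broad to set them apart. Chromosome 17 also had the densest EZH2 peaks, 3.52 per Mb of its span, and the part of that density in its share was not tested. Chromosomes are not replicates.

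**Figure D2:**
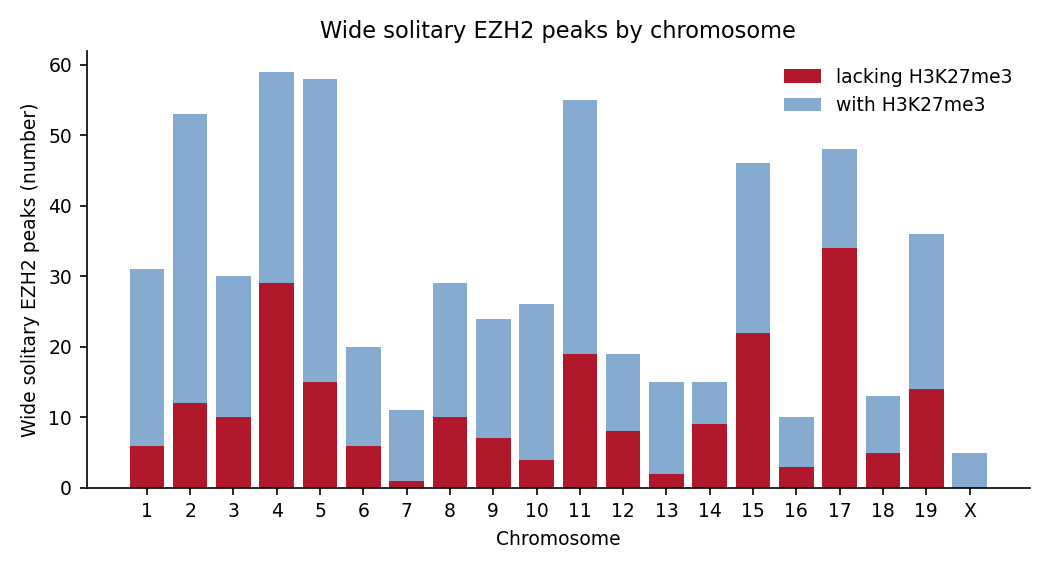
Number of wide solitary EZH2 peaks (y axis) on each chromosome (x axis), divided into those lacking H3K27me3 in R302S cells (red, 216 in all) and those with it (blue, 387). The red part is longer than the blue on chromosome 17 (34 and 14) and chromosome 14 (9 and 6).

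Within chromosomes the sites favoured the higher coordinates, as EZH2 peaks did in general. Along the span from the first to the last peak of each chromosome, divided into 3 equal lengths, 48 sites lay in the first, 51 in the middle and 117 in the last (54.2%). All EZH2 peaks had 47.8% in the last length, and wide solitary peaks with H3K27me3 had 50.9%. The widest site of each chromosome ranged from 5.4 kb on chromosome 16 (chr16:17206601-17212000) to 28.2 kb on chromosome 17. On chromosomes not yet mentioned, these sites included chr1:174267401-174277200 (9.8 kb), chr3:108193401-108203400 (10.0 kb), chr4:147502401-147512800 (10.4 kb), chr10:59931601-59941000 (9.4 kb) and chr14:122870801-122879800 (9.0 kb). Chromosome 2 (chr2:118718001-118726800, 8.8 kb), chromosome 12 (chr12:113401601-113410200, 8.6 kb), chromosome 13 (chr13:55472401-55481000, 8.6 kb), chromosome 6 (chr6:88802001-88809200, 7.2 kb) and chromosome 18 (9.2 kb) completed the set with chromosomes 5 and 7, described below. Chromosome 8 had the broadest sites on the whole, with a median of 10.0 kb over 10 sites, and chromosome 17 had a median of 6.3 kb over 34.

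Although solitary by definition, these sites lay in neighbourhoods rich in EZH2. The nearest other EZH2 peak was a median of 18.0 kb away (interval of the median 14.2 to 21.4 kb, quartiles 8.6 and 70.3 kb, maximum 1519 kb). For wide solitary peaks with H3K27me3 that gap was 78.2 kb (54.8 to 113.6 kb), and for narrower solitary peaks lacking H3K27me3 it was 63.4 kb (55.2 to 72.0 kb). Both comparison groups had met the same limit on neighbours, and neither interval overlapped that of the 216 sites. Within 1 Mb of a site there was a median of 13 other EZH2 peaks (quartiles 7 and 22), compared with 6 around the wide solitary peaks that had H3K27me3 and 6 around narrower ones lacking it. The 129 wide peaks lacking H3K27me3 with a neighbour within 5000 bp had a median of 21. Of the 216 sites, 71 (32.9%) had 5 or more EZH2 peaks within 100 kb, against 38 of 387 (9.82%) of the wide solitary peaks with H3K27me3. At the other end, 42 (19.4%) and 177 (45.7%) had none within 100 kb.

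The smaller gap was also present without chromosome 17. Without it, the median gap was 18.0 kb (14.2 to 21.8 kb) for the 182 remaining sites and 79.8 kb (57.6 to 119.0 kb) for the 373 remaining peaks with H3K27me3. On 14 of the 15 chromosomes with at least 5 peaks of each kind, the median gap was smaller for the sites lacking H3K27me3. The exception was chromosome 18, at 384.0 kb against 303.7 kb. Among the 4 chromosomes with fewer sites, the gap was larger for the sites on chromosomes 10 (152.4 against 96.6 kb), 13 (205.8 against 35 kb) and 16 (363.8 against 76.0 kb), from 4, 2 and 3 sites, and smaller for the 1 site on chromosome 7. On chromosome 14 the medians were 10.8 and 559.5 kb, and on chromosome 12 they were 10.4 and 400.2 kb.

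Seen the other way, the more isolated a wide solitary peak was, the less often it belonged to these sites. Of those with a neighbour between 5.2 and 10 kb, 66 of 122 lacked H3K27me3, or 54.1% (45.3% to 62.7%). The share was 44.8% (38.1% to 51.7%) with gaps up to 50 kb, 26.7% (19.9% to 34.9%) with gaps up to 200 kb, and 16.3% (11.2% to 23.1%) beyond that. Leaving out chromosome 17 gave 51.9%, 40.8%, 23.5% and 16.0%. The order was the same below 6800 bp of width, at 63.6%, 54.1%, 36.0% and 20%, and from 6800 bp up, at 42.9%, 33.7%, 14.3% and 9.62%. These are shares of called peaks, since the files give no signal and H3K27me3 below the caller's threshold is not listed.

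**Figure D3:**
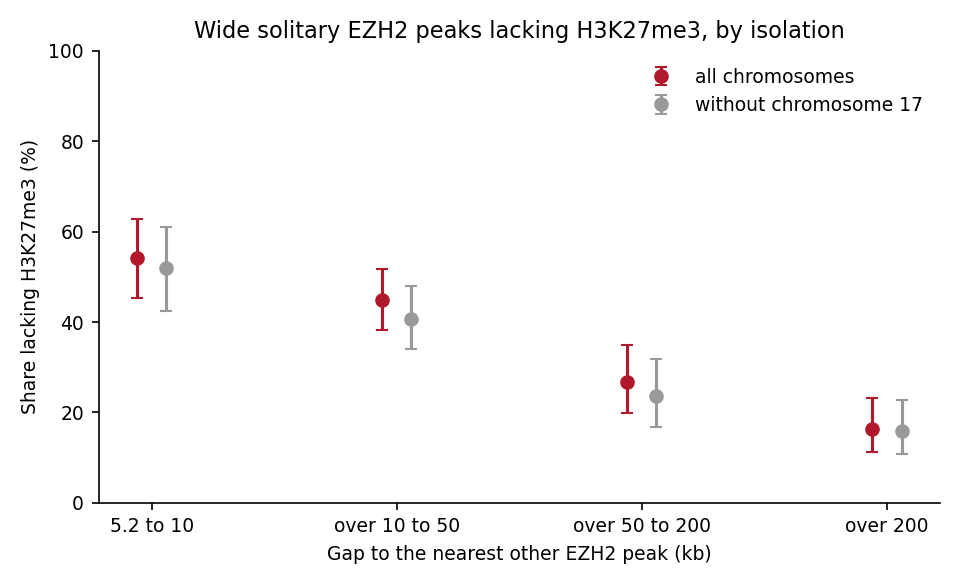
Share of wide solitary EZH2 peaks that lacked H3K27me3 in R302S cells (y axis, percent, bars are 95% Wilson intervals) by the gap to the nearest other EZH2 peak (x axis, kb). The share falls from 54.1% to 16.3% over all chromosomes (red) and from 51.9% to 16.0% without chromosome 17 (grey).

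Most nearest neighbours lacked called H3K27me3 as well. For 180 of the 216 sites (83.3%, 77.8% to 87.7%) the nearest EZH2 peak also lacked H3K27me3. For all EZH2 peaks this share was 73.0% (71.5% to 74.5%), for narrower solitary peaks lacking H3K27me3 it was 73.7% (71.7% to 75.7%), and for wide solitary peaks with H3K27me3 it was 69.0% (64.2% to 73.4%). The nearest neighbours had a median width of 2.6 kb, the same as for all EZH2 peaks, and 63 of 216 (29.2%, 23.5% to 35.6%) were 4400 bp or wider, against 24.9% for all EZH2 peaks. In 33 cases the nearest neighbour was another of the 216 sites.

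In order along each chromosome, the sites sat inside runs of EZH2 peaks without H3K27me3. The 216 sites were spread over 146 such runs, and the run around a site held a median of 7 EZH2 peaks (quartiles 4 and 15), the site included. Around narrower solitary peaks lacking H3K27me3 the run held a median of 5 (quartiles 3 and 9). Runs of 10 or more EZH2 peaks contained 76 sites (35.2%), while 7 sites were flanked on both sides by EZH2 peaks that had H3K27me3 or by the end of the list. A total of 36 runs held 2 or more sites and together accounted for 106 of them. These counts were not made for other kinds of EZH2 peak. Every EZH2 peak lacking H3K27me3 lies in such a run by definition. Since 72.3% of all EZH2 peaks lacked H3K27me3, the whole list held 633 such runs, with a median of 3 EZH2 peaks each. Counting by site rather than by run favours long runs. A run was set by order along the chromosome alone and need not be compact. The longest span of a run with a site was 17033.4 kb, on chromosome 6.

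The longest run contained 51 consecutive EZH2 peaks over 2343.6 kb of chromosome 11 (chr11:116514201-118857800). It included 10 of the sites, of 4400 to 23800 bp, and 19 of its EZH2 peaks were wide. The nearest H3K27me3 peaks lay 77.2 to 1331.6 kb from these sites, and no H3K27me3 peak fell inside the run. Beyond its higher end lay an H3K27me3 peak of 22.2 kb (chr11:118902401-118924600), which was the nearest one for 5 sites. The second run held 41 EZH2 peaks over 2835 kb of chromosome 17 (chr17:5699401-8534400), with 8 of the sites, of 4600 to 16400 bp. Here a single H3K27me3 peak of 3.0 kb (chr17:6474601-6477600) fell between EZH2 peaks without touching one, 11.6 kb from the closest site.

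**Figure D4:**
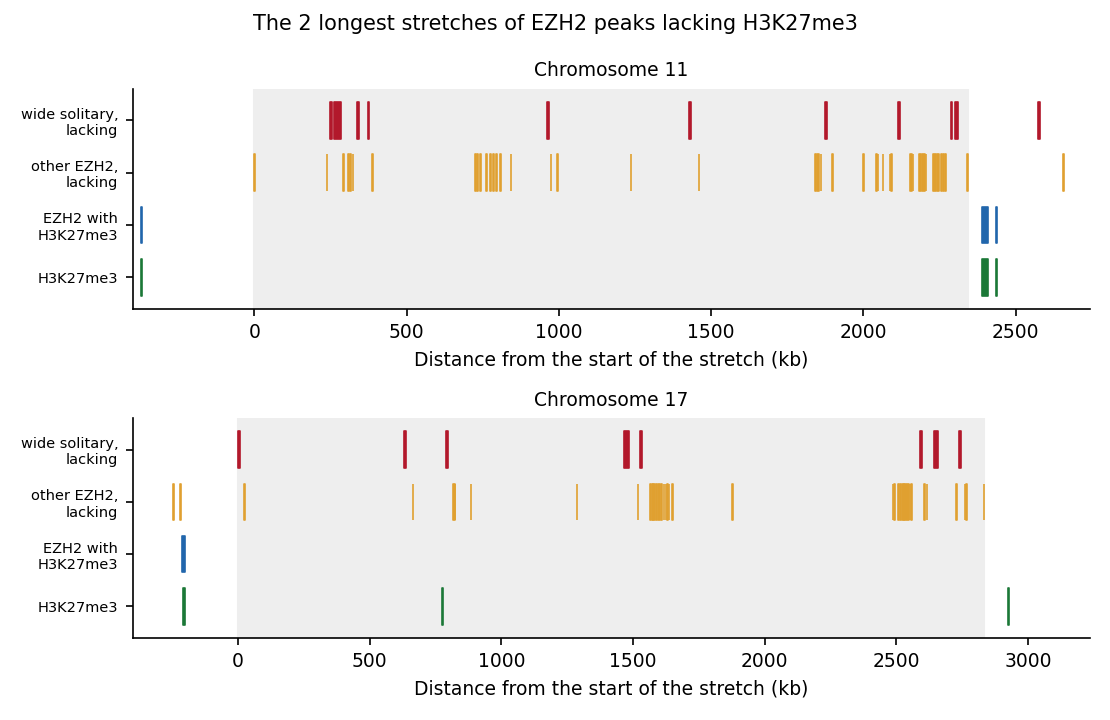
Peaks along the 2 longest runs of EZH2 peaks without H3K27me3 in R302S cells, on chromosomes 11 and 17, against distance from the run's start (x axis, kb). Rows show wide solitary EZH2 peaks lacking H3K27me3 (red), other EZH2 peaks lacking it (yellow), EZH2 peaks with it (blue) and H3K27me3 peaks (green), with the run shaded. The chromosome 11 run holds no green mark and the chromosome 17 run holds 1.

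Some sites shared a window of 1 Mb, although most windows with a site held 1. Window counts were not made for the comparison groups. The fullest windows were picked for their number of sites lacking H3K27me3, which favours few peaks with the mark in them. Of 154 fixed windows of 1 Mb that held any site, 113 held 1, 28 held 2, 8 held 3 and 5 held more. The fullest, chr12:113000001-114000000, held 6 sites of 4400 to 8600 bp among 24 EZH2 peaks, of which 1 had H3K27me3. Its 6 sites were all in a run of 22 EZH2 peaks spanning 374.6 kb and shared a single nearest H3K27me3 peak of 3.8 kb, at distances of 18.0 to 326.6 kb. The window chr15:102000001-103000000 held 5 sites, together 47.0 kb, among 15 EZH2 peaks, of which 2 had H3K27me3. It included the 20.4 kb site named above. Next to the 20.4 kb site was chr15:102765001-102771000 (6.0 kb) at a gap of 6.6 kb. Farther along in the same window lay chr15:102857201-102867600 (10.4 kb). The windows chr11:116000001-117000000, chr15:78000001-79000000 and chr11:118000001-119000000 held 4 sites each, among 12, 28 and 27 EZH2 peaks, of which 1, 2 and 2 had H3K27me3.

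The distance to residual H3K27me3 varied over several orders of magnitude. The median site was 152.5 kb from the nearest H3K27me3 peak of the R302S rescue (interval of the median 125.8 to 205.2 kb, quartiles 49.4 and 622.3 kb). In classes, 1 site abutted an H3K27me3 peak, 28 were more than 5 and up to 20 kb away, 54 up to 100 kb, 96 up to 1 Mb, and 37 (17.1%) more than 1 Mb. The nearest H3K27me3 peak was at the higher coordinate for 116 sites and at the lower for 100. It had a median width of 3.6 kb and overlapped an EZH2 peak for 195 sites (90.3%), where 77.3% of all H3K27me3 peaks did. The first share counts sites and the second counts peaks, so they are not like for like. The second also takes in sequences without any EZH2 peak, as the H3K27me3 list covers 25 sequences and the EZH2 list 20. The 216 sites referred to 159 different H3K27me3 peaks, so their distances are not independent. For 15 sites the nearest H3K27me3 peak was closer than the nearest other EZH2 peak.

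The median distance was shorter than for the 2 kinds of solitary peak compared here and longer than for wide peaks lacking H3K27me3 with close EZH2 neighbours. Narrower solitary EZH2 peaks lacking H3K27me3 were a median of 342.2 kb (304.6 to 384.8 kb) from the mark. Wide solitary peaks with H3K27me3 were 284.2 kb (228.6 to 355.6 kb) from the nearest H3K27me3 peak they did not overlap. The 129 wide EZH2 peaks that lacked H3K27me3 and had a neighbour within 5000 bp were 88.2 kb (62.4 to 132.4 kb) from it. H3K27me3 within 100 kb was present for 38.4% of the sites and 25.9% of the narrower peaks. A further H3K27me3 peak, not overlapped, lay within 100 kb of 24.8% of the wide solitary peaks with the mark. On 14 of 15 chromosomes with 5 or more sites, their median distance was smaller than that of the narrower peaks, chromosome 1 being the exception at 1587.1 against 752.1 kb. Among peaks with like gaps to the nearest EZH2 peak, the median of the sites was below that of the narrower peaks in 3 of 4 classes, and the intervals overlapped in each. With gaps of 5.2 to 10 kb the sites were 71.9 kb (41.0 to 130.2 kb) away and the narrower peaks 78.0 kb (59.6 to 106.8 kb). With gaps up to 50 kb the values were 126.0 kb (88.2 to 202.6 kb) and 162.0 kb (136.6 to 199.4 kb), and with gaps up to 200 kb they were 208.4 kb (155.6 to 417.4 kb) and 233.8 kb (194.4 to 282.4 kb). Beyond 200 kb they were 1052.2 kb, with an interval reaching up to 1878.6 kb over 24 sites, and 1000.4 kb (883.8 to 1141.6 kb). Wide solitary peaks with H3K27me3 had medians of 139.5, 157.0, 194.3 and 805.2 kb in the same order. The first of these compares with 71.9 kb for the sites, and its interval (59.6 to 179.4 kb) overlapped theirs. Overlapping intervals do not show that the distances were alike.

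**Figure D5:**
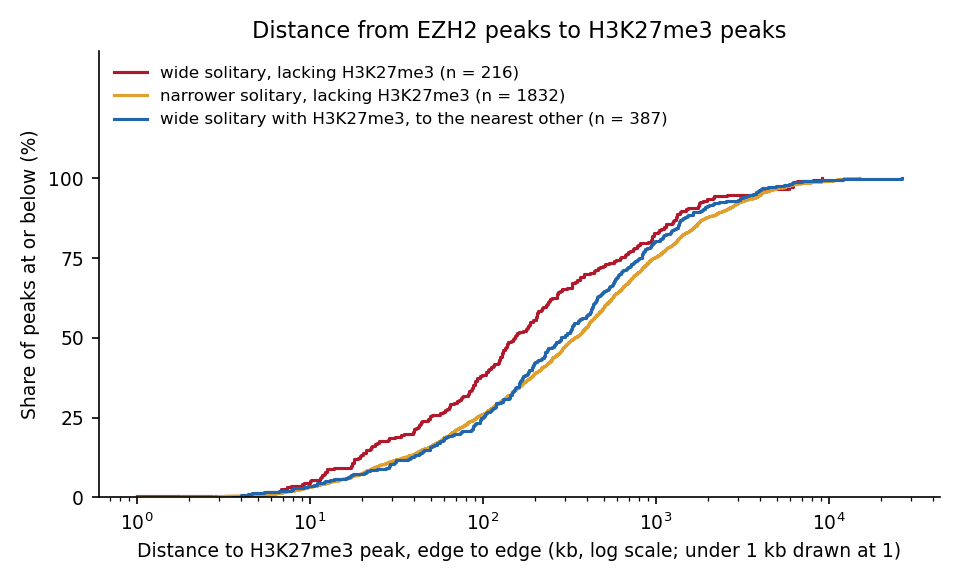
Cumulative share of peaks (y axis, percent) by edge-to-edge distance to an H3K27me3 peak of the R302S rescue (x axis, kb, log scale), for wide solitary EZH2 peaks lacking H3K27me3 (red), narrower solitary ones lacking it (yellow) and wide solitary ones with it, measured to the nearest H3K27me3 peak they do not overlap (blue). The red line crosses 50% at 152.5 kb, to the left of the blue line at 284.2 kb and the yellow line at 342.2 kb.

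The 5 sites closest to H3K27me3 spanned 4.6 to 7.4 kb. The 1 that abutted the mark was chr11:96032201-96039600, 7.4 kb wide, whose adjoining H3K27me3 peak was 400 bp wide, the smallest width in that list, and overlapped no EZH2 peak. Its nearest EZH2 peak lay 91.6 kb away. Next came chr4:117179001-117185000 (6.0 kb) and chr7:144500201-144507200 (7.0 kb), both 5.4 kb from an H3K27me3 peak, the first of them 12.8 kb wide. The latter was the sole site on chromosome 7. They were followed by chr15:98005601-98010200 (4.6 kb) at 5.6 kb and chr5:118637401-118642400 (5.0 kb) at 6.8 kb, beside an H3K27me3 peak of 19.8 kb. A further site, chr8:124266201-124272600 (6.4 kb), tied at 6.8 kb and was placed after it by the order of chromosomes. The nearest EZH2 neighbour carried H3K27me3 for the first 5 and lacked it for the tied site. These sites were picked for lying near H3K27me3, which favours neighbours that carry it. Over all 216 sites, 36 had a nearest EZH2 neighbour with H3K27me3.

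The 5 sites most remote from H3K27me3 were on chromosomes 5, 8 and 1. At chr5:5750601-5761000 a site of 10.4 kb, the widest of its chromosome, was 9139 kb from the nearest H3K27me3 peak and had 2 other EZH2 peaks within 1 Mb. A pair on the same chromosome, chr5:8365201-8370000 and chr5:8619401-8624000, were each other's nearest EZH2 neighbour at 249.4 kb, had 7 other EZH2 peaks each within 1 Mb and lay 6530 and 6276 kb from the mark. All 3 shared the same nearest H3K27me3 peak, which was 1000 bp wide and overlapped no EZH2 peak. The others were chr8:3585001-3590400 (5.4 kb) at 8133.6 kb and chr1:174225201-174233000 (7.8 kb) at 6225.2 kb. The latter had the widest site of chromosome 1 within 100 kb, which lay 6181 kb from H3K27me3.

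Few sites were remote from other EZH2 binding, and 3 of 216 had no other EZH2 peak within 1 Mb. Of these 3, 2 were on chromosome 18, of 6.8 and 4.4 kb, with gaps of 1519 and 1176.4 kb. The remaining 1, chr4:97440801-97447400 (6.6 kb), had a gap of 1035.8 kb. They were followed by chr12:99812001-99816400 at 984.0 kb and chr15:67006201-67010600 at 876.2 kb, both 4.4 kb wide. Their nearest H3K27me3 peaks were all 400 or 600 bp wide, between 129.8 and 1878.6 kb away.

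Width carried little information on position among the 216 sites. Across them, width and distance to H3K27me3 had a Spearman rho of -0.02 and a Pearson r of 0.01, and width and the gap to the nearest EZH2 peak had -0.17 and -0.11. The gap and the distance to H3K27me3 went together (rho = 0.40, r = 0.20), and the distance was shorter where more EZH2 peaks lay within 1 Mb (rho = -0.47, r = -0.36). Both relations are partly built in. For 195 sites the nearest H3K27me3 peak overlapped an EZH2 peak, and for 15 it was closer than the nearest other EZH2 peak. The gap was thus a lower bound on the distance for most sites. These coefficients describe regions of 1 pair of libraries, which share chromosomes and nearest peaks. Sites of 6800 bp or more were a median of 179.2 kb (116.0 to 329.6 kb) from H3K27me3, and narrower ones 147.2 kb (106.6 to 205.2 kb). On chromosome 17 the 34 sites were a median of 192.3 kb (106.6 to 417.4 kb) away, against 144.7 kb (116.0 to 205.2 kb) for the 182 elsewhere.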

How the data were processed

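The authors deposited peak positions in bp (start and end, with no score, height or p-value) for both libraries. Bowtie 1.0.0, deepTools and build mm9 are named, per the submitters' processing notes. How peaks were called, with what threshold and control, is not given in the sources used here, and read depth is unknown. Starts were multiples of 200 bp and ends 1 bp short of one, so 1 was added to each end. Positions are printed counted from 1.

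Gaps and distances run from edge to edge, and overlap means at least 1 shared bp. Counts were made with numpy 2.4.6, pandas 2.3.3 and scipy 1.17.1 under Python 3.11.15, checked against bedtools 2.31.1 and tested on 600 simulated peaks, of which 0 were assigned wrongly. Shares have Wilson intervals and medians order-statistic binomial intervals (95%), for counting error only and with peaks treated as independent. Figures used matplotlib 3.10.9. Named sites were the 10 widest, the widest of each chromosome, the 5 nearest to and farthest from H3K27me3, the 5 farthest from other EZH2 peaks, and the 5 fullest windows of 1 Mb. The 2 longest runs, the comparisons by width class, gap and run, and neighbouring sites named beside these were chosen after values were seen. The sites and limits were chosen with earlier results of these data known. No gene or sequence is given, because no mm9 genome or annotation was used here.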

Additional observations from a re-analysis of the deposited data

How the results depend on the processing

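The count of 216 sites was 361 with a minimum width of 3600 bp, 105 with 6000 bp and 345 with no limit on neighbours, and lay between 150 and 284 in the other 9 alternatives. The share of wide solitary peaks lacking H3K27me3, 35.8%, became 41.6% and 30.3% with those 2 widths, 31.2% with no other EZH2 peak within 10000 bp, 42.1% with no limit on neighbours and 47.1% where H3K27me3 had to cover at least 50% of a peak to count. In the other 7 it was 32.8% to 39.3%, within its interval. The median width of 5.8 kb became 4.6 and 7.4 kb with the 2 other minimum widths, by construction, and was 5.8 to 6.0 kb otherwise. The median distance to H3K27me3 of 152.5 kb became 87.1 kb under the 50% criterion, where partly covered peaks enter at a distance of 0, and was 129.8 to 204.2 kb otherwise. Allowing a gap of exactly 5000 bp (220 sites) and leaving out chromosome 17 (182 sites) were added after seeing the data. No paired analysis was possible because there is a single library in each group, which also means that no replicate could be omitted. No score filter could be applied, as the lists carry none. With depth unknown, weak H3K27me3 at these sites could not be assessed.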
